A study of Homo sapiens with 8 samples.

Results

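Retromer is a protein coat on endosomes, and the 8 genes described here encode its core and its best known membrane partners. They are VPS29, VPS26A, VPS26B and VPS35 for the core and the sorting nexins SNX1, SNX2, SNX5 and SNX6. The genes were chosen by name, with earlier results of these data known, so calls in them do not count as an independent finding. Their splice junctions match an intron of one of them in GENCODE 29 on GRCh38 or share a splice site with such an intron. This gave 383 of 654181 junctions, in 8 of the 22008 genes with at least 1 read over an annotated intron.

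The study compared HEK293 cells, an established human embryonic kidney line, treated with 25 nM LMI070 (branaplam) with cells that received the solvent dimethyl sulfoxide (DMSO) alone. Each group had 4 libraries, numbered 9 to 12 for DMSO and 13 to 16 for LMI070. All 8 libraries were made from ribosome-depleted total RNA of the same line with a strand-preserving kit, and both groups share that line as their only cell model. The length of treatment is not given in the sources used here. Separate cultures are not mentioned in the labels. The p-values therefore measure only the spread between these libraries, which may be technical. Lane 7 of the sequencer held DMSO 11 and 12 with LMI070 13 and 16, and lane 8 held the remainder. The deposited tables list, per library, the number of uniquely mapped reads that cross each junction, with totals of 20369466 to 36131054.

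In the core complex VPS35 is the elongated scaffold, VPS29 sits at its C-terminal end and VPS26A or VPS26B at its N-terminal end. The trimer returns cargo receptors from endosomes to the trans-Golgi network or the cell surface, and sorting nexins with a BAR domain, pairs of SNX1 or SNX2 with SNX5 or SNX6, shape the tubules that carry them. LMI070 is a splicing modifier, known to stabilise the pairing of U1 snRNP with certain 5′ splice sites, mostly at exons whose last bases are GA.

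All 6 HEK293 marker genes fixed for the check of the cell line had spliced reads, from 133 over the 8 libraries for PAX2 to 7949 for NEFL. Of the 14 markers of other cells, HBB and SERPINA1 had 0 reads and 10 others had 1 to 50 reads in all, while the fibroblast collagens COL1A1 and COL3A1 had 4485 and 593. COL1A1 had 382 to 1087 reads per library, and its part in the results below was not tested. DMSO 12 and LMI070 16 lay farthest from the other libraries in spliced reads per gene, at a mean leading log2 distance of 0.722 and 0.772 against 0.655 to 0.691 for the other 6.

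VPS29 has its alternative exons between exon 1 and the exon that the shortest full-length transcript joins directly to it, called exon 2 here. The gene lies on the minus strand of chromosome 12. The 12-nt exon spans chr12:110499535-110499546 and the 90-nt exon chr12:110499457-110499546, so both begin at the same 3′ splice site and differ in the 5′ splice site at which they end. A 40-nt exon at chr12:110498820-110498859 lies further downstream. All 3 are annotated in GENCODE 29. Their 5′ splice sites are shown because the exon end is what differs between the forms; the last 3 exon bases are in capitals and the first 6 intron bases in lower case, from GENCODE 29 transcripts on GRCh38, minus strand.
5′ splice site of the 12-nt exon: AGAgtaagt
5′ splice site of the 90-nt exon: AAGgtctgt
5′ splice site of the 40-nt exon: CAGgtactt
The 12-nt exon ended in GA, and the 90-nt and 40-nt exons ended in AG.

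The 12-nt exon lies directly behind the start codon of VPS29. The whole exon with the first 8 intron bases, at chr12:110499527-110499546, shows how short it is, with the exon in capitals.
12-nt exon and intron start: GCTGGGCACAGAgtaagttt
The coding sequence of the transcript with the exon, VPS29-201, and of the transcript that skips it, VPS29-206, begin as follows, with the bases of the 12-nt exon in capitals.
VPS29-201: atgGCTGGGCACAGAttggtgttggta
VPS29-206: atgttggtgttggta
Between these transcripts, inclusion of the 12-nt exon thus kept the frame and added 4 codons, for a coding sequence of 186 codons against 182. The annotated transcripts with the 90-nt exon, VPS29-207 and VPS29-210, or with the 40-nt exon and without the 12-nt exon, VPS29-202, are given a shorter coding sequence of 87 codons that starts downstream at position 110493141. The transcript with both the 12-nt and the 40-nt exon, VPS29-211, is annotated without a coding sequence.

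An exon was called when its adjusted p was under 0.05 and its inclusion differed by at least 10 percentage points, and VPS29 was the only one of the 8 genes with such an exon. Inclusion of all forms that use the shared 3′ splice site was 54.5% ± 4.62 in DMSO and 81.2% ± 2.76 in LMI070 (SD, n = 4 each), a difference of 26.7 percentage points. It was computed as the reads from exon 1 to that site, divided by those reads plus the reads from exon 1 to exon 2. In bulk libraries a form carried by fewer cells and a form with less RNA per cell cannot be told apart.

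In DMSO 9, 10, 11 and 12 the inclusion of all forms was 55.5%, 47.7%, 56.9% and 57.8%. In LMI070 13, 14, 15 and 16 it was 80.1%, 80.1%, 79.3% and 85.3%. The groups did not overlap, DMSO 10 was the lowest of its group and LMI070 16 the highest. The counts behind these values were 116, 133, 115 and 134 included reads against 93, 146, 87 and 98 skipping reads in DMSO. In LMI070 they were 254, 173, 149 and 168 included reads against 63, 43, 39 and 29 skipping reads. Included reads outnumbered skipping reads in every library except DMSO 10, where skipping reads were the more frequent. The 95% Wilson intervals reached from 41.9% to 63.9% over the DMSO libraries and from 72.9% to 89.6% over the LMI070 libraries, and they cover counting error only. An exact permutation test, two-sided, over the 70 assignments of the libraries gave p = 0.0286, the smallest p it can give, and 0.0857 after Benjamini-Hochberg adjustment over the 3 measures tested this way. The difference was 25.4 points within lane 7 and 28.1 points within lane 8.

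**Figure D1:**
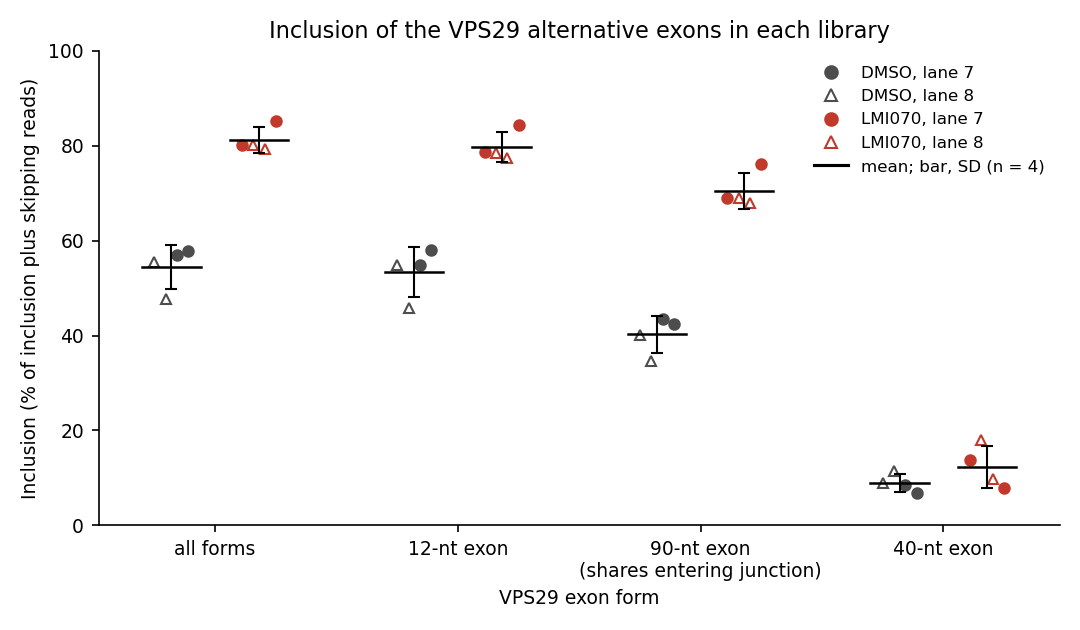
Inclusion of VPS29 exon forms, in percent of inclusion plus skipping reads, on the vertical axis for each library (filled circles lane 7, open triangles lane 8), with the group mean and SD of 4 libraries. For all forms, the 12-nt exon and the 90-nt exon, which share the entering junction, every LMI070 library lies above every DMSO library, while the groups overlap for the 40-nt exon; the 90-nt values are carried by that shared junction.

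The 12-nt exon was included at 55.0%, 45.7%, 54.8% and 58.1% in DMSO 9 to 12 and at 78.7%, 78.5%, 77.5% and 84.4% in LMI070 13 to 16. Here inclusion is the mean count of the junctions into and out of the exon as a share of that mean and the skipping reads together. The difference of means was 26.4 points, and the lowest LMI070 library was above the highest DMSO library. In the fit over all 26904 cassette exons, the quasi-likelihood F test of edgeR gave an adjusted p of 3.56e-12 after Benjamini-Hochberg adjustment. The 90-nt exon was included at 40.2%, 34.7%, 43.5% and 42.5% in DMSO and at 68.9%, 69.1%, 67.9% and 76.1% in LMI070. Its call, with a difference of 30.3 points (edgeR, adjusted p = 1.33e-11), is largely that of the junction both exons share: 1242 reads entered at the shared 3′ splice site and only 138 led from the 90-nt exon to exon 2. On that junction of its own, usage was 6.07% ± 2.40 in DMSO and 7.90% ± 0.517 in LMI070, the groups overlapped and no rise was called (edgeR, adjusted p = 0.977). This usage counts reads from the 12-nt exon into exon 2 among the other reads, so it does not compare the 90-nt form with skipping alone. The percentages of the 12-nt and 90-nt exons therefore count the same entering reads and do not add up. Among the 40 exons called higher over all genes, the 12-nt exon ranked 11 by the size of the rise.

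The choice between the 5′ splice sites of the 12-nt and the 90-nt exon showed no difference that could be told from the spread. Reads that left at the 12-nt site numbered 121, 134, 106 and 146 in DMSO and 246, 175, 138 and 160 in LMI070. Reads that left at the 90-nt site numbered 11, 24, 20 and 12 in DMSO and 30, 23, 17 and 21 in LMI070. The 12-nt site was thus the more used in every library, by a wide margin. Its share of these reads was 91.7%, 84.8%, 84.1% and 92.4% in the DMSO libraries and 89.1%, 88.4%, 89.0% and 88.4% in LMI070. The LMI070 libraries all fell inside the range of the DMSO libraries. The means were 88.3% ± 4.39 and 88.7% ± 0.401 (SD, n = 4 each; exact permutation test, two-sided, p = 0.686, adjusted over 3 tests 0.686). This measure and the summed reads below were chosen after the data had been seen.

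The 40-nt exon did not pass the test. Its inclusion between the 12-nt exon and exon 2 was 9.02%, 11.4%, 8.57% and 6.76% in the DMSO libraries and 13.8%, 17.9%, 9.85% and 7.89% in LMI070, and the groups overlapped. The difference of 3.44 points had an unadjusted p of 0.0409 and an adjusted p of 0.987 with edgeR, and was 1.59 points without LMI070 14.

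Counted from the side of exon 2, the reads that enter it came from 4 upstream exons. Skipping reads from exon 1 made up 41.2%, 49.3%, 41.0% and 37.7% of them in DMSO and 18.5%, 18.1%, 20.9% and 13.9% in LMI070. Reads from the 12-nt exon made up 49.1%, 38.2%, 45.3% and 53.1% in DMSO and 62.4%, 59.9%, 63.6% and 70.2% in LMI070. The skipping reads were the larger part in DMSO 10 alone, and the 12-nt exon was the larger source in the other 7 libraries. Reads from the 40-nt exon made up 5.75%, 5.07%, 4.72% and 5% in DMSO and 11.8%, 13.9%, 6.95% and 7.69% in LMI070. These groups did not overlap, but in LMI070 the lane 8 and lane 7 libraries each held 1 high and 1 low value. Reads from the 90-nt exon were the smaller part, with means of 6.15% ± 2.44 in DMSO and 8.03% ± 0.502 in LMI070 and overlapping groups. Over all libraries of a group, 994 reads entered exon 2 in DMSO and 972 in LMI070.

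**Figure D2:**
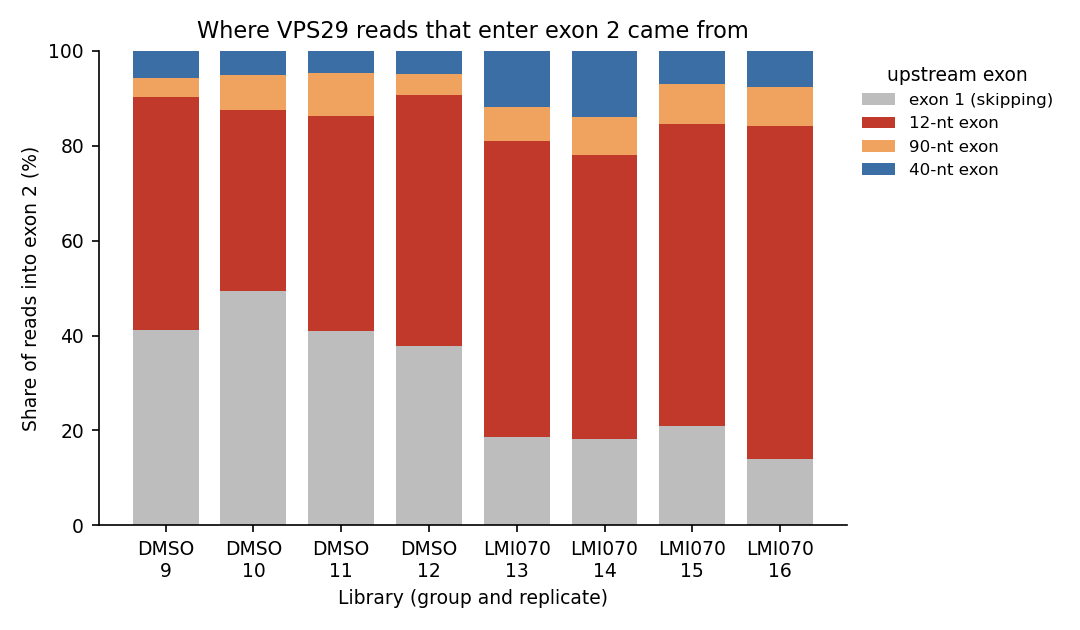
Share of the VPS29 reads entering exon 2 (vertical axis, percent) by the exon they came from, with 1 stacked bar per library. The share that skipped from exon 1 lies between 37.7% and 49.3% in the DMSO libraries and between 13.9% and 20.9% in the LMI070 libraries, and the 12-nt exon takes up most of the difference.

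Of the 10 VPS29 junctions tested for usage, 3 were called. Usage is a junction's share of all reads at its splice sites; over all 129495 junctions tested, 0.0394% were called higher, 0.027% lower and 0.0664% in either direction. The junction from exon 1 into the 12-nt and 90-nt exons, chr12:110499547-110502048, rose from 52.2% ± 4.49 to 77.5% ± 2.97 (edgeR, adjusted p = 1.00e-11). The skipping junction, chr12:110496204-110502048, fell from 27.7% ± 3.86 to 10% ± 1.67 (edgeR, adjusted p = 1.23e-16). The junction from the 12-nt exon to exon 2, chr12:110496204-110499534, rose from 44.1% ± 6.75 to 58.1% ± 5.25 (edgeR, adjusted p = 0.0239). The call of this junction was lost without any of DMSO 10, DMSO 11, LMI070 14, LMI070 15 or LMI070 16. The edgeR adjusted p was then 1.00, 0.382, 0.0836, 0.336 and 0.204, with rises of 11.1, 13.6, 15.8, 14.1 and 11.6 points. With all libraries the rise was 13.98 points, so it was no smaller without LMI070 14 or LMI070 15. The junction from the 40-nt exon to exon 2, chr12:110496204-110498819, was used at 5.08% ± 0.456 and 9.96% ± 3.33 and was not called (edgeR, adjusted p = 0.321).

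The other annotated introns of VPS29 showed no called difference or were too rarely read to test. A 143-nt exon between exon 1 and the 12-nt exon was joined to exon 1 by 4 reads in DMSO and 6 in LMI070, and its inclusion of 1.30% and 1.46% was not called (edgeR, adjusted p = 0.999). Its junction to the 12-nt and 90-nt exons, chr12:110499547-110501416, had 9 and 15 reads and a usage of 1.77% and 2.01%. From the 12-nt exon to the 40-nt exon there were 38 and 79 reads, used at 7.45% ± 2.26 and 10.6% ± 4.45 (edgeR, adjusted p = 0.977). From the 90-nt exon to the 40-nt exon there were 4 and 7 reads, and from the 90-nt exon to exon 2, whose usage is given above, there were 61 and 77. The direct junction from exon 1 to the 40-nt exon had 3 reads in DMSO and 0 in LMI070. A site at position 110497003 was joined to exon 1 by 1 and 3 reads and to the 40-nt exon by 1 and 4. None of these low counts supports a comparison.

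Downstream of exon 2 no difference in the use of the VPS29 introns was called. The intron from exon 2 to exon 3, chr12:110493232-110496011, was used at 96.2% ± 0.407 in DMSO and 96.7% ± 0.943 in LMI070. The intron from exon 3 to exon 4, chr12:110492123-110492995, was used at 96.8% ± 0.488 and 96.9% ± 0.970. The junction that skips exon 3 had 67 and 62 reads and a usage of 1.67% and 1.58%. The edgeR adjusted p was 1.00 for all 3, at unadjusted p of 0.615, 0.921 and 0.813.

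Scaled to depth, the skipping form was lower and the included form higher. Reads into the 12-nt and 90-nt exons were 5.28, 4.98, 4.54 and 6.07 reads per 1000000 unique junction reads of the library (RPM) in DMSO and 7.03, 6.72, 7.32 and 7.83 in LMI070. Skipping reads were 4.23, 5.46, 3.44 and 4.44 RPM in DMSO and 1.74, 1.67, 1.92 and 1.35 in LMI070. Neither pair of groups overlapped, with a ratio of means of 1.38 for the included form, LMI070 over DMSO, and of 2.63 for the skipping form, DMSO over LMI070. The sum of both was 9.51, 10.4, 7.98 and 10.5 RPM in DMSO and 8.77, 8.39, 9.23 and 9.18 in LMI070. The groups overlapped for the sum, at 9.61 ± 1.18 and 8.89 ± 0.393 (SD, n = 4 each; exact permutation test, two-sided, p = 0.286, adjusted over 3 tests 0.429). The introns after exon 2 and exon 3 had 19.1 ± 1.98 and 21.6 ± 1.59 RPM in DMSO and 17.8 ± 0.519 and 19.2 ± 0.970 in LMI070, again with overlap.

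**Figure D3:**
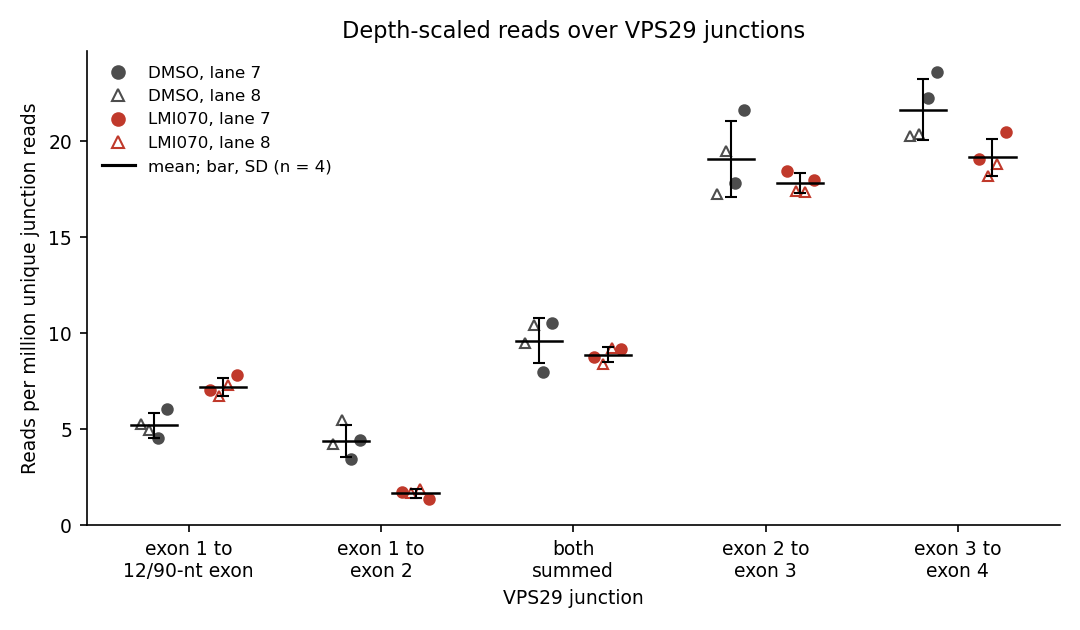
Reads per 1000000 unique junction reads (vertical axis) over 4 VPS29 junctions and the sum of the first pair, for each library with group mean and SD (filled circles lane 7, open triangles lane 8). The included and skipping junctions separate the groups in opposite directions, with means of 5.22 against 7.22 and 4.39 against 1.67, and the groups overlap for their sum and for both downstream introns.

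In the other 7 genes no exon was called. The cassette exons that could be tested in the 8 genes numbered 39, of which 2 were called, the VPS29 exons of 12 and 90 nt that share the entering junction, both higher; over all exons tested, 0.149% were called higher, 0.00372% lower and 0.152% in either direction. Of the 34 exons in the other 7 genes edgeR called 0, DESeq2 called 0 and 1 had an unadjusted p under 0.05, a level reached by 4.89% of all exons. Their median absolute difference was 0.366 percentage points, against 0.729 over all 26904 exons tested. Some of the 34 share a 3′ splice site with another form and so count the same entering reads. Several rest on 1 read at a junction, so the 34 are not all separate exons. An exon called at 10 points needs room to move and skipping reads to count. On simulated data the test recovered 71% of exons changed by 30 points and 18% of those changed by 15, with 4 false calls over 24428 exons. Recovery meant an adjusted p under 0.05 in the right direction, without the 10-point rule. The simulated spread was set to 1 value for all exons and not estimated from these libraries. The simulated exons were only raised, and from a middle range of inclusion. Most exons of the other 7 genes lay near full inclusion or near none, where recovery was not measured.

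VPS35, the scaffold, had 4 tested exons, and the 123-nt exon at chr16:46668930-46669052 differed the most, with 96.5% in DMSO and 97.3% in LMI070. VPS26A, which with VPS26B fills the other end of the trimer, had 2, and its 143-nt exon at chr10:69168489-69168631 was included at 98.5% and 99.1%. VPS26B had 4, and the largest difference was in an unannotated 184-nt exon, chr11:134240465-134240648, at 2.56% and 2.09%. All these groups overlapped, and all edgeR adjusted p were 0.999. The exon of VPS26B rests on 2 reads at one of its junctions.

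Among the sorting nexins, SNX5 had 13 tested exons and the largest difference outside VPS29. Its 83-nt exon at chr20:17968375-17968457 was included at 83.3%, 75.2%, 75.0% and 74.7% in DMSO and at 71.1%, 82.8%, 74.9% and 66.2% in LMI070. The groups overlapped, and the LMI070 libraries spanned a wider range than the DMSO libraries. The difference of -3.33 points had an edgeR adjusted p of 0.999, and was -6.20 points in lane 7 and -0.455 in lane 8. It was -1.24 points without DMSO 9, -6.34 without LMI070 14 and -0.823 without LMI070 16, where the named SNX6 exon, at 1.96 points, differed more. The junction upstream of that exon, chr20:17968458-17968699, was used at 56.2% ± 7.70 and 45.3% ± 9.52, from 216 reads in all, and did not pass either (edgeR, adjusted p = 0.977). The SNX5 exon with an unadjusted p under 0.05 was the 106-nt exon at chr20:17950291-17950396, at 99.4% and 99.9% (edgeR, adjusted p = 0.987).

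SNX1 had 6 tested exons with at most 1.65 points of difference, in a 128-nt form at chr15:64118117-64118244 included at 97.5% and 99.2%. SNX2, which pairs with the same partners as SNX1, had 1, the 81-nt exon at chr5:122827379-122827459, at 98.9% and 99.0%. SNX6 had 4, with 88.6% and 90.5% for an 81-nt form at chr14:34608060-34608140. The forms named for SNX1 and SNX6 each rest on 1 read at one junction, and their values mainly show the other junction. All edgeR adjusted p were 0.999.

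**Figure D4:**
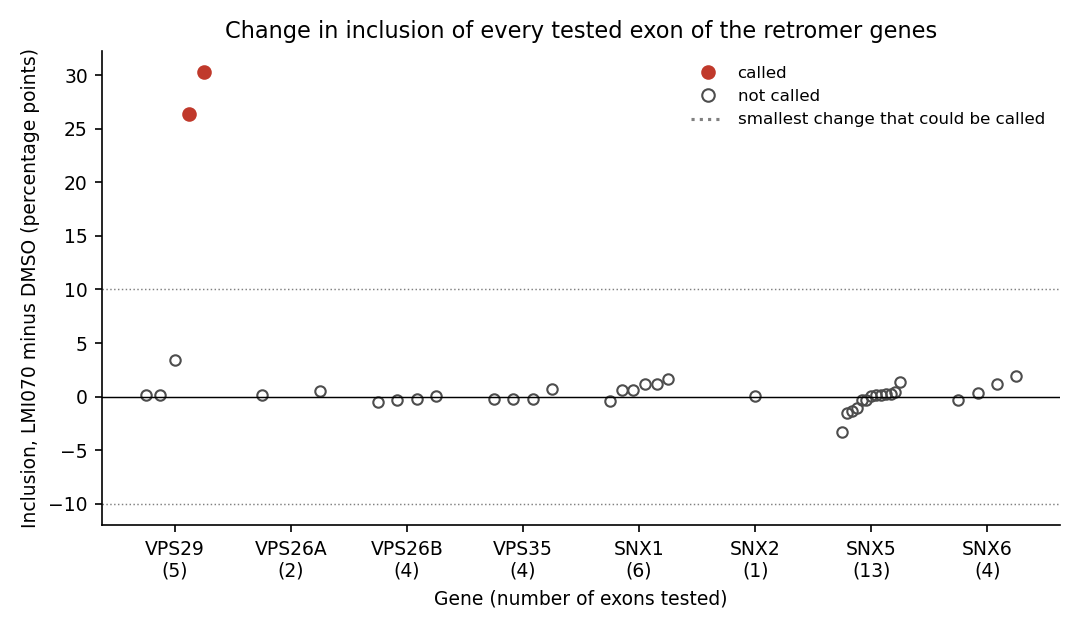
Difference in inclusion, LMI070 minus DMSO in percentage points (vertical axis), for the 39 tested exons of the 8 genes, with 1 point per exon and the number of exons under each gene name. The 12-nt and 90-nt exons of VPS29 stand at 26.4 and 30.3 points, both with the reads of the shared entering junction, and all exons of the other genes lie within 3.33 points of 0.

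Exon ends like that of the 12-nt exon were rare in these genes. Of 107 annotated 5′ splice sites, 106 had their exon bases in a transcript sequence, 79 exons ended in G and 4 ended in GA, 3 of these in AGA. Besides the 12-nt exon these were a 183-nt exon of VPS35 at chr16:46680671-46680853 (AGA), a 40-nt exon of SNX6 at chr14:34581561-34581600 (AGA) and a 48-nt exon of SNX6 at chr14:34629907-34629954 (GGA). For the VPS35 exon 0 skipping reads were counted in either group. With 3 reads taken as the upper limit for a count of 0, the skipped share could reach 0.134% in DMSO and 0.127% in LMI070. Such limits rest on the pooled reads of a group and cover counting error only. The SNX6 exon ending in AGA was included at 98.5% ± 1.09 and 98.8% ± 0.424 from 12 and 9 skipping reads (edgeR, adjusted p = 0.999). The SNX6 exon ending in GGA had 0 skipping reads in either group, and by the same rule its skipped share could reach 0.617% and 0.579%. The VPS29 exon was thus the one exon of the 4 that DMSO libraries skipped often.

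In the 110 junctions tested in the other 7 genes edgeR called 0 and DESeq2 called 0, and 3 had an unadjusted p under 0.05, as did 3.1% of all junctions. These were junctions of VPS26A, VPS35 and SNX5, with differences of -0.879, -0.385 and -3.02 points of usage and an adjusted p of 0.977 each. Of the 231 junctions of the 8 genes that GENCODE 29 does not list, 221 had fewer than 20 reads. Junctions with at least 5 reads in LMI070 and 0 in DMSO numbered 2, or 0.866% of the 231, where 0.339% of all unannotated junctions met that rule. They were chr10:69162513-69168488 in VPS26A, with 7 reads, and chr16:46682176-46683420 in VPS35, with 6 reads, each read in 3 libraries. At these counts neither is told from counting error. The reverse rule found 0 in these genes and 0.174% of all unannotated junctions.

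The spliced reads of the 8 genes showed no called difference. Reads over the annotated introns of a gene were scaled to counts per 1000000 (CPM) with TMM factors, and 18 of 14250 genes, 0.126%, passed an edgeR adjusted p under 0.05, 0.0211% higher and 0.105% lower. Of the 8 genes edgeR called 0, DESeq2 called 0 and 0 had an unadjusted p under 0.05. Over all 14250 genes DESeq2 called 37, and 10.4% had such an unadjusted p with edgeR. At those shares a count of 0 among 8 genes says little about them. The log2 fold changes, LMI070 over DMSO, lay between -0.09 and 0.10, with a median of -0.04 against 0.00 over all genes. In all 8 genes the groups overlapped.

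For VPS29 the level was 52.6, 55.6, 52.5 and 62.3 CPM in DMSO and 53.5, 52.2, 52.5 and 55.2 CPM in LMI070. The LMI070 libraries lay within or just under the DMSO range, and DMSO 12 was the highest of all. The log2 fold change was -0.06 with a standard error of 0.056 (edgeR, adjusted p = 0.717). It was -0.00361 without DMSO 12 and -0.107 without DMSO 11. This level sums reads over all annotated introns, and a transcript with the 12-nt exon carries more of them than one that skips it. Higher inclusion therefore adds reads to the LMI070 level of VPS29 without more transcripts. The downstream introns, shared by both forms, had 19.05 and 21.64 RPM in DMSO and 17.8 and 19.15 RPM in LMI070. Both means were lower in LMI070, the groups overlapped, and the difference in RPM was not tested. How far inclusion raised the level was not tested. For the scaffold VPS35 the level was 281, 279, 283 and 307 CPM in DMSO and 271, 271, 279 and 277 CPM in LMI070, with a log2 fold change of -0.06 (SE 0.0396; edgeR, adjusted p = 0.58). For VPS26A it was 54.2, 58.5, 56.5 and 59.6 CPM in DMSO and 69.0, 53.7, 57.9 and 64.6 CPM in LMI070 (log2 fold change 0.10, SE 0.0572; edgeR, adjusted p = 0.565). Both high LMI070 values of VPS26A came from lane 7. VPS26B had 44.9 ± 2.22 and 46.8 ± 1.19 CPM (log2 fold change 0.06; edgeR, adjusted p = 0.718).

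SNX1 had 75.9 ± 2.44 CPM in DMSO and 81.0 ± 7.23 CPM in LMI070, and its 2 highest libraries were also the LMI070 libraries of lane 7, at 85.9 and 88.5 CPM. SNX2 had 266 ± 10.2 and 253 ± 11.7 CPM, SNX5 215 ± 12.4 and 203 ± 8.40 CPM, and SNX6 145 ± 2.38 and 144 ± 10.3 CPM. Their log2 fold changes were 0.09, -0.08, -0.09 and -0.01, with edgeR adjusted p of 0.57, 0.545, 0.53 and 0.936. Within lane 7 alone the log2 fold changes were 0.21 for VPS26A, 0.23 for SNX1, -0.16 for SNX2 and -0.19 for SNX5, with edgeR adjusted p of 0.151, 0.0861, 0.178 and 0.0952. Within lane 8 alone they were -0.02, -0.04, 0.01 and 0.03, with edgeR adjusted p of 0.991, 0.943, 0.981 and 0.955. The difference between the lanes was not tested.

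**Figure D5:**
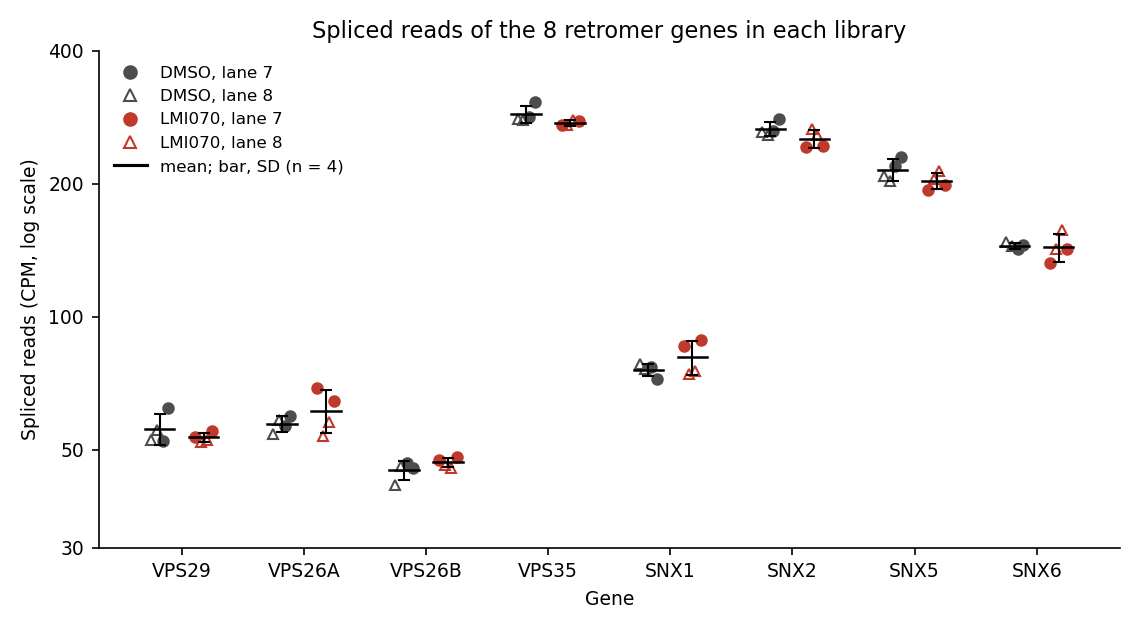
Spliced reads of the 8 genes in CPM (vertical axis, log scale) for each library with group mean and SD (filled circles lane 7, open triangles lane 8). The groups overlap in every gene, from VPS26B with a DMSO mean of 44.9 CPM to VPS35 with 287 CPM, and the lane 7 LMI070 libraries are the highest points of VPS26A and SNX1.

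To compare genes of different intron number, the level was also taken per intron, as the median RPM over the introns of 1 coding transcript. In DMSO this was 19.5 ± 0.488 for SNX2, 19.0 ± 1.66 for VPS35 and 18.4 ± 0.899 for SNX5, each overlapping its neighbour in the order. SNX6 followed at 11.96 ± 0.817, apart from SNX5. VPS26B at 9.70 ± 0.389, VPS26A at 8.09 ± 0.384 and SNX1 at 5.55 ± 0.135 did not overlap their neighbours. VPS29 has no single place in this order. Of the 4 introns of its transcript with the 12-nt exon, those on either side of that exon had 5.22 and 4.83 RPM and the downstream ones 19.1 and 21.6 RPM, so its median of 12.2 ± 1.29 averages alternative and downstream introns. By the downstream introns its level was near those of SNX2, VPS35 and SNX5.

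The wider endosomal sorting machinery was read from lists of 81 genes, of which 77 could be tested, and both edgeR and DESeq2 called 0. An unadjusted p under 0.05 was found for 4 genes with higher and 8 genes with lower values in LMI070, and for 10.4% of all genes tested. The retriever and Commander genes, whose complex contains VPS29 together with VPS35L and VPS26C, had 15 tested members, 3 of them lower at that unadjusted level, and a median log2 fold change of -0.07. VPS35L had 106 and 107 CPM (edgeR, adjusted p = 0.972) and VPS26C 28.1 and 29.4 CPM (edgeR, adjusted p = 0.724). In the WASH complex, which builds actin on endosomes, 2 of 9 tested members were lower at the unadjusted level, with a median of 0.00. Of the other sorting nexins 1 of 20 was lower, with a median of -0.01, and of the Rab GTPases and regulators 1 of 14 was higher, with a median of 0.00. Of the retromer cargo genes 3 of 19 were higher and 2 lower, with a median of 0.03. Among the 203 cassette exons tested in these genes edgeR called 0 and DESeq2 called 0, 13 had an unadjusted p under 0.05, and the differences were at most 9.74 points. Over all exons tested with edgeR, 4.89% had such an unadjusted p and 0.152% were called.

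The exons called over all genes were set beside the 12-nt exon by the root mean square difference in inclusion over the 8 libraries. Of 29 genes with a called exon, 1 exon each, GTF2H2 was closest, at 7.19 percentage points, for an unannotated 53-nt exon included at 51.3% ± 5.98 in DMSO and 75.8% ± 3.50 in LMI070. STRN3 followed at 8.95 points with a 111-nt exon, TRIM65 at 9.64 points with an 83-nt exon, GGCT at 12.1 points with a 146-nt exon and LIMCH1 at 15.9 points with a 36-nt exon. These exons were included at 43.8% and 76.6%, 55.3% and 91.2%, 69.0% and 83.7%, and 70.4% and 91.8%. They were set beside the 12-nt exon for their values alone, and all had been called in the same libraries.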

How the data were processed

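Per the file headers and values, the deposited tables hold raw counts of reads crossing each splice junction, 1 table per library. The authors aligned with STAR 2.6.0c to GRCh38, per the submitters' processing notes. Aligner parameters are not given in the sources used here. Uniquely mapped counts were used, with totals of 20369466 to 36131054 per library. Multiply mapped reads came to at most 0.255% of those of any of the 8 genes.

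Introns were taken from GENCODE 29, whose annotation matched the tables' own mark for 99.8% of junctions. Exons of 3 to 500 nt, with forms ending at the same 5′ splice site counted once, needed 10 inclusion and 10 skipping reads over all libraries and 10 reads in each. Junctions needed 20 reads in all and 10 reads at their sites in each library. Paired inclusion and skipping counts entered edgeR 4.0.16 (R 4.3.3), whose quasi-likelihood model had 1 term per library and let inclusion depend on lane and on treatment. Calls needed a Benjamini-Hochberg adjusted p under 0.05 over all features and a difference of 10 points or more. Spliced reads per gene were tested with edgeR after its expression filter, with lane and treatment. DESeq2 1.42.0 was an alternative, as were other filters, lanes alone and each library left out. Leaving out DMSO 12 and LMI070 16 together was added after seeing the data. On simulated data the gene test recovered 84% of genes changed 1.5-fold, and the junction test recovered 71% of junctions changed by 30 points and 5% of those changed by 15. False calls numbered 9 over 14151 genes and 0 over 124047 junctions. As for the exons, the spread was set and not estimated, and recovery of junctions needed no 10-point difference. The simulated junctions, like the simulated exons, were only raised, and from a middle range of usage.

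The 8 genes, the lists and the tests were chosen with earlier results of these data known. Named were all 8 genes, every exon or junction of theirs passing the test, the exon of each with the largest change, every annotated VPS29 intron, VPS35L and VPS26C, called genes of the lists, and the 5 genes closest to the 12-nt exon.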

Additional observations from a re-analysis of the deposited data

Results flagged for a closer look

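In each group of 4 libraries the highest and lowest value was compared with its nearest neighbour, and values whose gap, as a share of the group's range, exceeded Dixon's 95% critical value were singled out. This held for 4 of the 46 groups checked, and chance alone gives about 1 in 20. In VPS29, LMI070 16 had an inclusion of all forms of 85.3%, where the nearest library had 80.1%, and an inclusion of the 90-nt exon of 76.1%, where the nearest had 69.1%. These 2 values share most of their reads, and without LMI070 16 the difference in all forms was 25.4 points. DMSO 12 had 306.8 CPM of VPS35, where the nearest library had 282.7. DMSO 9 included the 83-nt exon of SNX5 at 83.3%, where the nearest had 75.2%.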

How the results depend on the processing

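Under all 15 alternatives the 12-nt exon of VPS29 kept its call, and the difference was 23.8 to 28.0 points when each library was left out in turn; with DESeq2 the adjusted p was 0.000422, and within lanes 7 and 8 it was 25.1 and 27.7 points. Without DMSO 12 and LMI070 16, a choice made after seeing the data, it was 26.4 points. Inclusion of all forms differed by 24.5 to 27.8 points with each library left out and by 24.5 points when counted at the 5′ splice sites. The count of called exons in the 8 genes was 2 under every alternative. The count of called junctions was 3, or 2 under DESeq2, without the filter, in each lane alone, without DMSO 12 and LMI070 16, and without any of the 5 single libraries named above; both junctions were then among the 3, and the lost one was that from the 12-nt exon to exon 2. Its adjusted p was 1.00 with DESeq2, 0.934 without the filter, 1.00 and 0.768 in lanes 7 and 8, and 0.0518 without DMSO 12 and LMI070 16. For genes the count stayed 0.

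Over all genes, 272 of 21597 tested passed without a filter on low counts and 666 of 14271 with only lane 7. The related endosomal genes called, 0 in all, became 3 and 4 in those settings. Named after their values were seen, these were LRP1 (log2 fold change 0.27 without the filter and 0.58 in lane 7), RAB7A (0.22 and 0.46), COMMD6 (-0.19 and -0.29) and, in lane 7, CAPZA2 (-0.24). The cause was not tested.

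Some differences that had not passed the test changed sign. In lane 8 alone the log2 fold change was -0.0184 for VPS26A, -0.042 for SNX1, 0.0142 for SNX2, 0.0258 for SNX5 and 0.034 for SNX6. For SNX6 it ranged from -0.0453 without LMI070 15 to 0.021 without LMI070 13, and was above 0 also without DMSO 12 (0.00703) or LMI070 14 (0.0129). The named VPS35 exon differed by -0.312 points in lane 8 and -0.0104 without DMSO 12 and LMI070 16. The named SNX2 exon differed by -0.205 points in lane 7, and by -0.0617 (without DMSO 10) to 0.28 (without DMSO 11) with each library left out, with -0.0558 without LMI070 13. Inclusion near 0% or 100% rests on few reads of the rarer form, and only 187 to 340 reads per library entered exon 2 of VPS29, which limits what a single library shows.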
